A study of Arabidopsis thaliana with 12 samples.

Results

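Distant alternative acceptors are introns that share a donor but end at either of 2 acceptor sites more than 6 nt apart, so that the upstream part of the exon is kept or removed. They were taken from the authors' deposited splicing tables as alternative-acceptor events with a single interval longer than 6 nt, leaving out rows whose stated difference was not that of the 2 PSI values. This gave 1976 distinct events among 13918 readable events of all kinds, in 1677 host genes. The table of untreated seedlings held 1338 of them among 9849 events, that with abscisic acid (ABA) 1552 of 11170, and that of the ABA response 1484 of 10502.

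The study compared Arabidopsis thaliana seedlings of the Col-0 ecotype with seedlings of the mutant rbm25-1, each untreated or treated with ABA. Seedlings were 2 weeks old and bulked, and the treated groups were sprayed with 0.1 mM ABA 6 hours before harvest, while the labels name no mock spray for the others. Polyadenylated RNA of 12 samples, 3 in each of 4 groups, was sequenced, and whether the 3 came from separate plates or sowings is not stated. The molecular nature of the rbm25-1 allele is not given in the sources used here. RBM25 (AT1G60200), a splicing factor gene with PWI and RRM domains, stood at 27.9% of its wild-type FPKM in untreated rbm25-1 and at 15.8% with ABA (log2 -1.84 and -2.66, q = 0.000132 for both) in the authors' deposited gene tables.

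An intron ends at an acceptor, an AG that usually follows a run of pyrimidines bound by U2AF, and the spliceosome commits to it in its second catalytic step. Acceptors a few bases apart are often both used because one spliceosome can pick either AG. Acceptors farther apart usually differ in their pyrimidine run and branch point, and the choice between them can add or drop a stretch of protein, shift the reading frame or change an untranslated region. RBM25 proteins of animals and yeast associate with the U1 snRNP and influence the choice of splice sites. ABA is the plant hormone of drought and seed dormancy, and several of its signalling genes are alternatively spliced.

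The measure is the percent spliced in (PSI), here the share of transcripts that use the upstream acceptor and so carry the longer exon. The tables hold 1 PSI per group, the difference in percentage points and an unadjusted p, and no value per sample, so that no SD can be given and the read depth behind a PSI is unknown. Higher and lower below give the sign of a PSI difference, since no distant acceptor passed the test after adjustment for the number of events.

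The sequences of 7 events with p under 0.05 in both mutant comparisons are shown because they are among the largest repeated differences and span the kinds of sites involved. They are printed 5′ to 3′ on the gene's strand from the RefSeq genome TAIR10.1, whose coordinates fitted the deposited introns: of 1972 members on a strand, 1953 had a GT donor and 19 a GC donor, and 1971 upstream and 1972 downstream acceptors were AG. Capitals mark the AG of each acceptor. Where the interval is coding and short, the run goes from 20 intronic bases before the first exon base of the long form to 4 exonic bases after the downstream AG. Otherwise each acceptor is shown with 20 intronic and 4 exonic bases.
AL6 (chr2:654337-654363, plus strand): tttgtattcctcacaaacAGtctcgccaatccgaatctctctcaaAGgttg
HAB1 (chr1:27392481-27392516, plus strand): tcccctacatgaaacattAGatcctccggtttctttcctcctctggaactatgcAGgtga
AT5G52580 (chr5:21338670-21338687, plus strand): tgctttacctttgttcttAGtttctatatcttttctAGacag
AT3G09470 (chr3:2913162-2913211, minus strand): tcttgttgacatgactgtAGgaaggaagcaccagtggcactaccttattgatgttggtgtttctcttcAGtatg
CTR1 upstream (chr5:974709-974739, minus strand): ttccctttttaatgttgcAGattg
CTR1 downstream: gtacatgactattgtcacAGggag
AT5G03220 upstream (chr5:768056-768134, minus strand): tcaaatatctttgtgtgtAGatta
AT5G03220 downstream: gctgatgttcttgttgacAGacct
AT3G07300 upstream (chr3:2327407-2327424, minus strand): tatgaaatctaacgcctcAGgttt
AT3G07300 downstream: aggtttcgcattttctcaAGtttc

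The distances between the acceptors had a median of 25 nt, with quartiles of 11 and 84.2 nt. Short distances prevailed: 556 events lay at 7 to 12 nt, 527 at 13 to 30, 443 at 31 to 100 and 450 above 100. The commonest distances were 7 nt with 117 events and 9 nt with 114. Lengths divisible by 3 made up 608 of 1976 events (30.8%). Those with a remainder of 1 made up 781 (39.5%) and those with a remainder of 2 made up 587 (29.7%). A length divisible by 3 keeps the reading frame only where the interval is coding and holds no intron. Some events were not simple choices within 1 exon: in 278 of 1972 (14.1%) the interval held an annotated donor, so that the long intron runs past the end of an annotated exon. Their median length was 634 nt, against 19 nt for the other 1694.

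**Figure D1:**
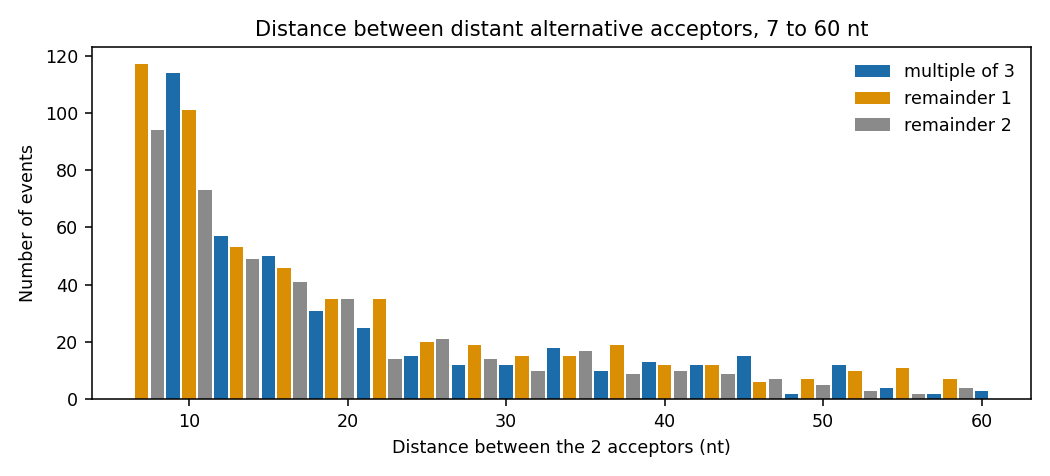
Number of distant alternative-acceptor events (vertical axis) at each distance in nt between the acceptors (horizontal axis) for the 1364 events up to 60 nt, coloured by the remainder of the distance divided by 3. The counts are highest at 7 to 10 nt, with 117 events at 7 nt and 114 at 9 nt, and decline with distance.

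Events were sorted by which of their acceptors the RefSeq annotation holds with the same donor. Both were annotated for 459 of 1972 events (23.3%), the upstream one only for 1075 (54.5%), the downstream one only for 399 (20.2%) and neither for 39. Divisibility of the length by 3 followed this sorting. It held for 45.1% of the pairs with both acceptors annotated, against 26.6% and 25.6% where the upstream or the downstream one alone was annotated. In 260 of the events with only the upstream one annotated, the interval held an annotated donor, so that its length does not give the frame. Among coding intervals that held no annotated donor, 123 of 193 with both acceptors annotated kept the frame with no stop codon in the interval. Where the upstream acceptor was not annotated, the interval is intron in the annotation, and 156 of 342 such coding intervals held an in-frame stop while 19 (5.56%) kept the frame without one. Codons that straddle a junction were not read.

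The acceptors themselves differed by position in the pooled events, and less evenly within the kinds of annotation. The downstream acceptor was CAG, the commonest form in plants, in 60.6% of events and the upstream one in 48.0%, against 62.8% of 131883 annotated acceptors of the genome. In the largest kind, with only the upstream acceptor annotated, CAG did not separate the positions, at 53.8% upstream and 53.6% downstream, while it was 46.8% and 70.6% with both annotated and 33.8% and 70.4% with only the downstream one. TAG stood at 37.8% of upstream and 20.2% of downstream acceptors, and AAG at 12.5% and 14.1% against 7.47% of annotated ones. AAG turned with the annotation: it was 9.77% upstream and 19.8% downstream where only the upstream acceptor was annotated, 14.2% and 8.06% with both, and 17.5% and 4.01% with only the downstream one. Pyrimidines took a median of 58.8% of the 17 bases from the fourth to the twentieth before the upstream exon start and 52.9% at the downstream one, against 64.7% at all annotated acceptors. Where both acceptors were annotated, the median was 58.8% at each, and it was the same at each where only the downstream one was. Where only the upstream acceptor was annotated, it was 64.7% upstream and 52.9% downstream. In the 556 events at 7 to 12 nt, the downstream window holds the upstream AG and shares bases with the upstream window. Somewhat wider pairs overlap in part as well. What part this overlap plays in the pyrimidine medians was not tested. AL6 and HAB1, printed above, show both forms: AL6 has CAG upstream and AAG downstream, HAB1 TAG upstream and CAG downstream.

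In every group the upstream acceptor was the main one for most members, and the level followed the annotation. The median PSI over all members was 92.9% in untreated wild type, 88.7% in untreated rbm25-1, 92.7% in wild type with ABA and 89.8% in rbm25-1 with ABA in the authors' deposited tables, over 1682, 1338, 1823 and 1552 events. The groups differ in which events have a value: over the 971 events with a PSI in all 4 groups the medians were 74.6%, 72.7%, 76.5% and 75.8%. With only the upstream acceptor annotated the median was 100% in all 4 groups, and with only the downstream one it lay between 2.88% and 3.57%. Pairs with both annotated were mixed, with medians from 40.0% to 43.9%. In untreated wild type, 400 of 1682 events (23.8%) had a PSI from 10 to 90%, 710 stood at 100% and 178 at 0%.

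**Figure D2:**
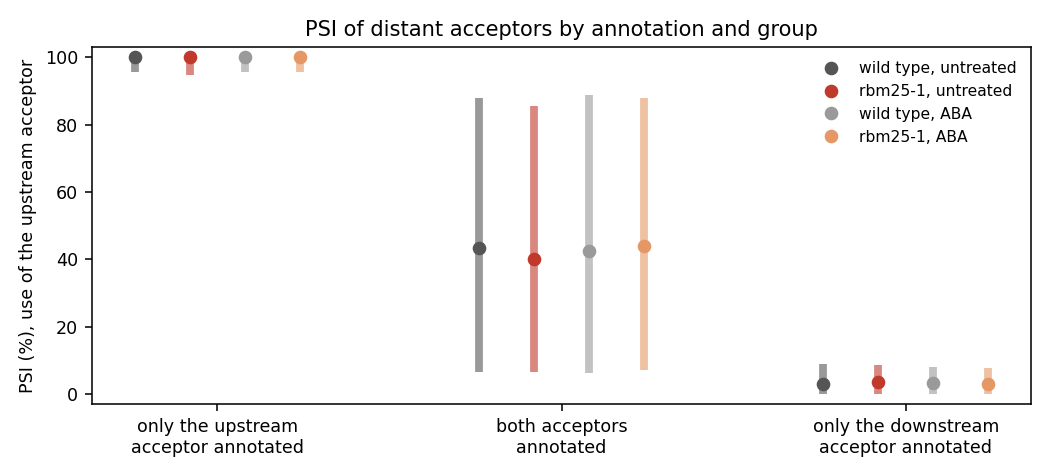
Median PSI in percent (points, vertical axis) and its quartiles (bars) in the 4 groups, for events with only the upstream, both, or only the downstream acceptor annotated. Medians are 100% in the first class, between 40.0% and 43.9% in the second and between 2.88% and 3.57% in the third, and the 4 groups lie close together within each class.

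The first comparisons ask what rbm25-1 changes in this choice, without and with ABA. Without ABA, 94 of 1338 distant acceptors (7.03%) had p under 0.05 before adjustment in the table the authors deposited, 42 with a higher and 52 with a lower PSI in rbm25-1. Over all events of that table the share was 6.13%, with 2.39% higher and 3.74% lower. With ABA, 100 of 1552 (6.44%) had p under 0.05, 52 higher and 48 lower, against 6.4% of all events, 2.92% higher and 3.47% lower. Both shares lay near those of the whole table. After Benjamini-Hochberg adjustment over each whole table, 0 members passed 0.05 in either, where 0.0102% and 0.0179% of all events did, and the lowest adjusted p of a member was 0.263 untreated and 0.165 with ABA.

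The 2 mutant tables share no sample, but the second was made under ABA and is not a plain repeat of the first. Whether their seedlings came from separate sowings is not stated. Of 971 distant acceptors in both, 31 (3.19%) had p under 0.05 in each, and all 31 had the same sign in both; among all 7547 events in both tables, 2.61% had p under 0.05 and 1 sign in each. The 31 were 34.4% of the 90 events called untreated and 37.3% of the 83 called with ABA among the 971, against 35.1% and 31.6% over all events in both tables. In 12 the upstream acceptor was used more in rbm25-1 and in 19 less. Among all events in both tables, 197 of the 198 with p under 0.05 in each had the same sign. Of these, 56 had a higher and 141 a lower PSI in rbm25-1. Of the 90 events called untreated, 71 had the same sign with ABA, 10 the opposite sign and 9 no difference. Over all events the same sign was seen in 462 of 561, a like share.

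**Figure D3:**
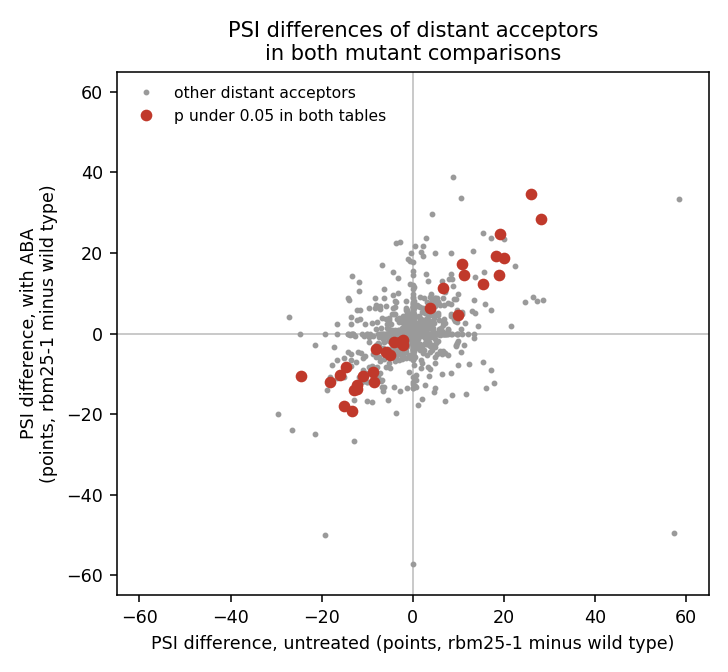
PSI difference of rbm25-1 minus wild type in percentage points, untreated (horizontal axis) and with ABA (vertical axis), for the 971 distant acceptors in both authors' tables; red points are the 31 with p under 0.05 in each. All red points lie in the lower left or upper right field, 19 below and 12 above 0, while the other points gather around 0 and fall in all fields.

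The 12 events with a higher PSI included those of the hormone signalling genes CTR1 and HAB1. The widest on average over both conditions was in AL6, an alfin-like protein with a PHD finger that binds methylated histone H3. In the authors' deposited tables its PSI was 39.29% in wild type and 65.22% in rbm25-1 untreated (p = 0.0237), and 30.43% and 65% with ABA (p = 0.0372). Both groups of rbm25-1 were thus above both of wild type, and the added 27 nt at the end of the last intron, 4 of 4, keep the frame with no stop.

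CTR1 encodes the kinase that represses ethylene signalling when no ethylene is bound, and its choice lies in the last intron, 15 of 15, inside the 3′ untranslated region. The authors' deposited tables give a PSI of 30.77% in wild type and 58.82% in rbm25-1 untreated (p = 0.0266), and 21.62% and 50% with ABA (p = 0.00123). The upstream acceptor, 31 nt away, is not in the annotation with this donor, and its pyrimidine share was 76.5% against 52.9% at the annotated one. The CTR1 transcript rose by log2 0.28 in rbm25-1 with ABA (q = 0.0412) and stood at log2 0.08 untreated (q = 0.601) in the authors' deposited gene tables.

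HAB1 encodes a clade A protein phosphatase 2C, a co-receptor that holds ABA signalling off until the hormone-bound receptor blocks it. In intron 4 of 5 the unannotated upstream acceptor had a PSI of 0.0% in untreated wild type and 20% in untreated rbm25-1 (p = 0.0209) in the authors' deposited table. With ABA the authors' deposited table gives 8.24% in wild type and 26.92% in rbm25-1 (p = 0.00902). Wild type itself differed by 8.24 points between ABA and no treatment (p = 0.159) in the authors' deposited table, using the same wild-type groups. The 36 nt that the upstream acceptor adds keep the frame without a stop, which makes HAB1 1 of the 19 such intervals named above. HAB1 transcript level did not pass in either of the authors' deposited mutant tables, at log2 0.10 (q = 0.55) and -0.22 (q = 0.117).

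AT5G52580, of the RabGAP/TBC family that switches off Rab GTPases, had the lowest p of the 12 with ABA. Its PSI was 8.33% in wild type and 27.5% in rbm25-1 untreated (p = 0.000735), and 6.56% and 31.34% with ABA (p = 0.00034) in the authors' deposited tables. The 18 added nt keep the frame, and both of its acceptors are TAG.

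The other 8 events with a higher PSI lay in genes of unlike functions. PI4K GAMMA 4, a phosphoinositide 4-kinase family gene, had 9.68% and 25% untreated and 14.65% and 26.92% with ABA in the authors' deposited tables, at a 26-nt choice in the 5′ untranslated region. AT5G26740, of an organic solute transporter family, had 47.83% and 66.67% untreated and 44.9% and 59.52% with ABA at a 60-nt choice in the same kind of region. AT5G64816, a thionin-like gene, had 15.04% and 25.77%, then 15.38% and 32.73%, and a further event uses the same interval with another donor. In each of these 3, as their choice required, the PSI of rbm25-1 was above that of wild type in both conditions.

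TTL, a transthyretin-like protein of the urate breakdown route, had 22.56% and 33.68% untreated and 20.37% and 34.83% with ABA in the authors' deposited tables, at 39 coding nt. GLTP1, a glycolipid transfer protein, had 24.15% and 30.7%, then 28.66% and 39.92%. AT2G23790, annotated as a calcium uniporter, had 49.02% and 67.27%, then 60.65% and 80%, at a 510-nt interval that holds an in-frame stop. U2B'', a protein of the U2 snRNP, had 90.14% and 100%, then 95.51% and 100%, and ALDH11A3, an aldehyde dehydrogenase, had 93.37% and 97.18%, then 91.27% and 97.7%. In U2B'' and ALDH11A3 wild type stood at 90.14% or above in both conditions.

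Of the 19 events with a lower PSI in rbm25-1, the clearest in a splicing factor gene was that of SR30 (AT1G09140), a serine/arginine-rich protein that guides splice site choice. Its pair in intron 10 of 11, 338 nt apart and annotated at both sites (chr1:2943227-2943564, minus strand), had a PSI of 49.3% in wild type and 33.33% in rbm25-1 untreated (p = 0.00543) in the authors' deposited table. With ABA it had 16.77% and 6.41% (p = 0.00653) in the authors' deposited table. In the authors' deposited table of the ABA response, which shares the wild-type groups, wild type with ABA differed by -32.53 points from untreated wild type (p = 0.000869). The order of the groups was thus untreated wild type, untreated rbm25-1, wild type with ABA and rbm25-1 with ABA. Transcript level of SR30 rose by log2 0.63 in rbm25-1 with ABA (q = 0.000132) and stood at -0.01 untreated (q = 0.954) in the authors' deposited gene tables.

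AT3G07300, of the NagB/RpiA/CoA transferase-like family, gave the widest lower difference on average, at an 18-nt choice in the 5′ untranslated region. Its PSI was 48.94% in wild type and 24.39% in rbm25-1 untreated (p = 0.0055), and 31.48% and 21.05% with ABA (p = 0.0136) in the authors' deposited tables. Its wild-type groups differed by -17.46 points with ABA (p = 0.00142) in the authors' deposited table. All 3 other groups were thus well below untreated wild type. The untreated mutant difference and the ABA difference of wild type both use that untreated wild-type value.

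Lower PSI from a full wild-type value was seen at 4 events, in AT5G03220, AT3G21710, NAP1;1 and RABG3E, which stood at 100% in both wild-type groups. AT5G03220, for the Med7 subunit of the Mediator complex that links transcription factors to RNA polymerase II, had 81.82% untreated and 88% with ABA in the mutant in the authors' deposited tables. The uncharacterized gene AT3G21710 had 86.67% and 80.77%, and NAP1;1, a nucleosome assembly protein, had 87.04% and 86%. RABG3E, a Rab GTPase of vacuolar traffic, had 97.2% and 97.89%. In all 4 the annotation holds the upstream acceptor only, so that rbm25-1 had some use of an unannotated downstream site at which the wild-type PSI gave none. In AT3G21710 and NAP1;1 the interval runs past the end of an annotated exon. AT3G09470, of the major facilitator transporters, also has only its upstream acceptor annotated, but its wild type stood below 100% in both conditions. Its PSI was 95% and 80% untreated and 93.1% and 75% with ABA in the authors' deposited tables. The AT3G09470 transcript fell in rbm25-1 by log2 -0.43 (q = 0.00214) and -0.60 (q = 0.000132) in the authors' deposited gene tables.

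Among the rest of the 19, ATMAK3, an N-acetyltransferase, had 41.18% and 28.85% untreated and 40.21% and 26.35% with ABA in the authors' deposited tables. CKB2, a regulatory subunit of casein kinase II, had 77.5% and 66.67%, then 78.64% and 68.06%, at 15 coding nt. AT2G26800, of the aldolase family, had 45.59% and 33.33%, then 43.75% and 31.03%. AT4G32060, an EF-hand protein, had 20.3% and 5.65%, then 10% and 1.6%, at an unannotated upstream site whose 100 nt hold a stop. AT4G21660, of a spliceosome-associated family, had 6.9% and 0.93%, then 5.71% and 1.01%. Its transcript rose in rbm25-1, by log2 0.86 and 0.97 (q = 0.000132 for both) in the authors' deposited gene tables.

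The other 7 of the 19 were AT2G35830, ATI2, AT3G62190, AT5G43100, AT5G35680, AT1G04970 and AT5G65380. ATI2, an autophagy protein that binds ATG8, had 78.75% and 70% untreated and 77.14% and 67.47% with ABA in the authors' deposited tables. AT2G35830, annotated as a ureidoglycolate hydrolase, had 28.97% and 20.52%, then 35.11% and 23.13%, and AT3G62190, a DnaJ-domain protein, had 16.67% and 8.62%, then 11.01% and 7.21%. AT5G43100, an aspartyl protease, had 15.79% and 10.87%, then 13.33% and 7.94%. In AT5G35680, AT1G04970 and AT5G65380 every value was at or below 5.55%, so that their upstream sites were minor in all groups. Over the whole set of 19 the size of the difference ran from 2.15 to 24.6 points untreated and from 1.67 to 19.2 points with ABA. Over the 12 higher events it ran from 3.81 to 28.1 and from 4.49 to 34.6 points.

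**Figure D4:**
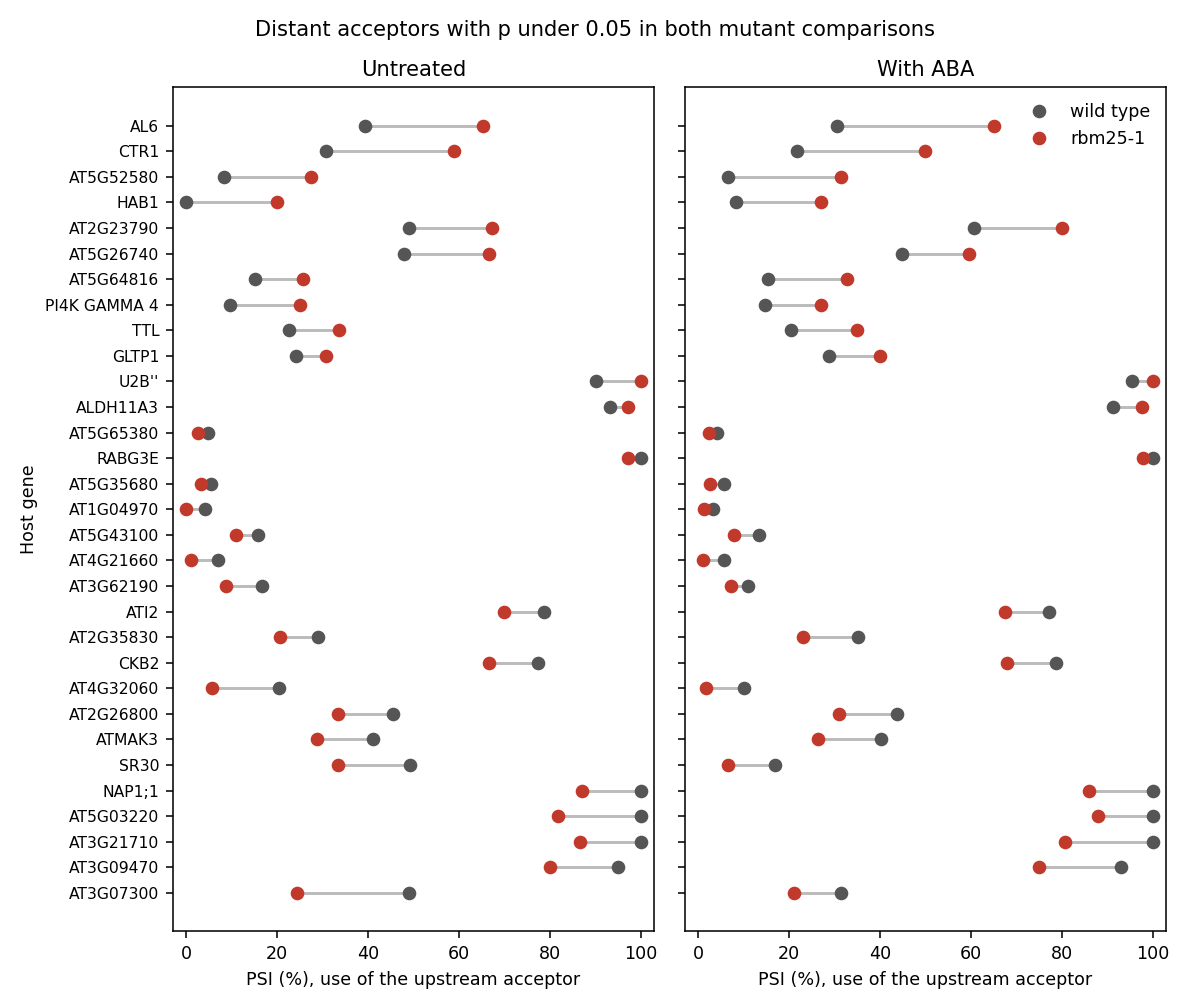
PSI in percent (horizontal axis) of wild type (grey) and rbm25-1 (red), untreated on the left and with ABA on the right, for the 31 events with p under 0.05 in both authors' mutant tables, named by host gene and ordered by mean difference. The upper 12 rows have rbm25-1 to the right of wild type in both panels, widest in AL6 and CTR1, and the lower 19 have it to the left, widest untreated in AT3G07300.

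The make-up of the 31 is set beside that of the 971 events in both tables, as a description of events chosen by their p. Distant acceptors with equal PSI in both groups never had p under 0.05. Untreated, these were 15.4% of those with both acceptors annotated, against 54.7% and 22.8% with only the upstream or the downstream one. The make-up thus depends in part on the choice by p, and the size of that part was not tested. Both acceptors were annotated in 19 of 31 (61.3%) against 33.3%, and the median length was 36 nt against 20 nt. The length was divisible by 3 in 7 of the 12 higher events, in 6 of the 19 lower ones and in 31.2% of the 971. CAG stood at the upstream acceptor in 51.6% and at the downstream one in 67.7% of the 31, against 45.7% and 63.9%. By place, 15 were coding, 8 lay in the 5′ untranslated region and 1 in the 3′ untranslated region, where the 971 had 674, 143 and 26. Of the 30 host genes in the authors' deposited gene tables, 6 passed the authors' q under 0.05 untreated, 5 higher and 1 lower, and 14 with ABA, 8 higher and 6 lower. These are 20% and 46.7%, against 13.3% and 31.9% of all loci. After ABA in wild type 14 of the 30 passed (46.7%), 9 higher and 5 lower, against 56.1% of all loci. What part expression level plays in these counts of few genes was not tested.

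Some of the largest differences had p under 0.05 in 1 of the mutant tables, and whether the 2 tables differ there was not tested. Untreated, UMAMIT45, an EamA-like transporter, led with a PSI of 41.67% in wild type and 100% in rbm25-1 (p = 0.043) in the authors' deposited table, and it had 66.67% and 100% with ABA (p = 0.141). The higher list also held AT4G14305, a peroxisomal membrane protein family gene, at 78.57% and 100%, SUVH9, a histone methyltransferase homolog that acts in RNA-directed DNA methylation, at 56.25% and 74.16%, and SPL2, a squamosa promoter binding protein-like factor, at 14.29% and 30%. AT3G61080, a kinase family gene, stood at 82.76% and 100%, and AT2G25870, a dehalogenase-like hydrolase gene, at 82.86% and 100%. With ABA the signs were mixed in the authors' deposited table. SUVH9 had 78.95% in wild type and 66.67% in rbm25-1, and AT3G61080 had 100% and 90.91%. SPL2 had 15.15% and 30.43%, AT4G14305 78.12% and 80%, and AT2G25870 94.12% and 100%. Each of these had p above 0.05 with ABA. At the lower end stood AT5G51300, the plant homolog of the branch point binding protein SF1, with 100% in wild type and 72.73% in rbm25-1 untreated (p = 0.0255) and 86.21% and 90.32% with ABA (p = 0.885) in the authors' deposited tables.

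Other low values untreated were those of AT1G27520, a glycosyl hydrolase, at 64.71% and 38.09%, WLIM2b, a LIM protein that bundles actin, at 38.46% and 15%, and AT1G03040, a bHLH factor, at 100% and 81.25% in the authors' deposited table. AT3G19790 and AT5G11700 each had 100% in wild type and 83.33% in rbm25-1, and UMAMIT38 had 100% and 84.62%. Each of these had p above 0.05 or no value with ABA in the authors' deposited tables.

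With ABA, the lowest p of any distant acceptor was that of AT3G26020, a regulatory B subunit of protein phosphatase 2A, with 72.73% in wild type and 100% in rbm25-1 (p = 5.5e-05, adjusted p = 0.165) in the authors' deposited table, at a 42-nt choice in the 5′ untranslated region; it had no untreated value. AT5G66010, an RNA-binding protein of the RRM family, had 36.59% and 60% with ABA (p = 0.0158) and 21.74% and 41.67% untreated (p = 0.0782) in the authors' deposited tables. AT1G10890, an arginine/glutamate-rich protein, had 57.14% and 80.95% with ABA (p = 0.0336) and 58.82% and 76.0% untreated (p = 0.0797) in the authors' deposited tables. AT3G56720, annotated as a pre-mRNA-splicing factor, had 0.0% and 20% with ABA, GTE8, a bromodomain factor, 50.23% and 72.73%, and AT4G10925 9.52% and 29.82%. An event without a single host gene, 5479 nt long, had 46.94% and 100%. Its interval held an annotated donor, so that the long intron runs past the end of an annotated exon.

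Among the lower values with ABA were SBI1, a leucine carboxyl methyltransferase that acts on protein phosphatase 2A, at 87.5% and 60.87%, AT1G03740, a kinase, at 100% and 75%, and PES2, an esterase, at 100% and 77.27% in the authors' deposited table. AT5G25560, a RING zinc finger gene, had 77.78% and 62.5%, AT5G27860 49.48% and 35%, AT5G16940 78.57% and 64.29%, and AT3G57810 100% and 87.1%. Several of these pairs start or end at 100%, and the number of reads behind them is unknown.

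The next comparison asks how wild type responds to ABA. It shares untreated wild type with the untreated mutant comparison, and wild type with ABA with the other mutant comparison. Where an event is named for ABA and for untreated rbm25-1, such as SUVH9, AT3G61080 or AT3G07300, the same untreated wild-type value enters each difference. Of 1484 distant acceptors, 76 (5.12%) had p under 0.05 in the authors' deposited table, 41 with a higher and 35 with a lower PSI after ABA, against 4.83% of all events, 2.35% higher and 2.47% lower. None passed the adjusted threshold, with 0 of 1484 members against 0.00952% of all events and a lowest adjusted p of 0.353. The lowest p was that of AFP3, which encodes a protein that binds the ABA factor ABI5 and its relatives: its 14-nt choice in the 5′ untranslated region had a PSI of 51.35% untreated and 69.29% with ABA (p = 0.00037) in the authors' deposited table. In rbm25-1 the same event had 59.62% untreated and 73.58% with ABA.

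The widest higher values in wild type after ABA were CNX2, of molybdenum cofactor synthesis, at 30.77% and 59.62%, AT3G50790, an esterase, at 45.71% and 70.98%, and SUVH9 at 56.25% and 78.95% in the authors' deposited table. AT5G66010 had 21.74% and 36.59%, EDA3 86.67% and 100%, and APL1, a large subunit of ADP-glucose pyrophosphorylase in starch synthesis, 86.96% and 100%. PDK1, a phosphoinositide-dependent kinase, had 0.0% and 12.41%. AT5G25560 was named for both signs: its 15-nt choice had 63.64% and 77.78%, and an 802-nt choice in its 5′ untranslated region 100% and 83.64%. AT2G23790 was higher by 11.63 points (p = 0.0437) in the authors' deposited table, and AT3G61080 and AT4G13590 ended at 100%.

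After SR30, the widest lower values after ABA were AT5G27950 at 37.86% and 11.11%, AT2G33550, a homeodomain-like gene, at 80.95% and 56.25%, and AT4G09970 at 30.77% and 7.69% in the authors' deposited table. WEB1, of chloroplast movement under blue light, had 100% and 76.92%, AT3G56840, an oxidoreductase, 57.14% and 40.28%, and ADA2B, a transcriptional adaptor, 47.62% and 33.33%. AT5G53420, of the CCT motif family, had 20.93% and 8.06%, AT4G19985 13.04% and 0.0%, and AT2G23985 26.87% and 15.79%.

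Gene lists of splicing and hormone biology held few distant acceptors, and over all events tested, as over all distant acceptors, the median difference was 0.0 points in each table. Of 20 SR splicing factor genes, 8 had a member untreated, 5 with ABA and 8 in the ABA comparison. SR30 alone had p under 0.05 in each mutant table, with a lower PSI, and 2 did after ABA in wild type, SR30 and RS2Z33, both lower. These counts, 1 of 8, 1 of 5 and 2 of 8, stand beside 6.13%, 6.4% and 4.83% of all events. RS2Z33 had 7.88% and 5.77% in wild type untreated and with ABA (p = 0.0456), and 10.96% and 11.16% in rbm25-1 in the authors' deposited tables. RS31 had 14.85%, 10.24%, 10.23% and 4.59% in the same order, and SR45 had 62.5%, 60%, 61.9% and 78.12%, with no p under 0.05 for either. The median difference of the list was -0.265 points untreated, 5.39 with ABA and -2.3 after ABA in wild type.

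Of 26 genes of other splicing factors and RNA-binding proteins, 8, 7 and 8 had a member, and p was under 0.05 for 1 of 8 untreated (the SF1 homolog AT5G51300, lower), 0 of 7 with ABA and 1 of 8 after ABA (higher), against 6.13%, 6.4% and 4.83% of all events. The last was SKIP, which joins the spliceosome and transcription, at 1.79% untreated and 6.3% with ABA (p = 0.00961) in the authors' deposited table. The U2AF large subunit gene ATU2AF65A, whose protein binds the pyrimidine run of acceptors, had 29.69% in untreated wild type, 34.15% in untreated rbm25-1, 25% in wild type with ABA and 30.77% in rbm25-1 with ABA, with no p under 0.05. The U1 snRNP gene AT5G17440, LUC7 related, stood at 0.0%, 4.76%, 5.83% and 0.0%. List medians were 1.3, 0.0 and -0.44 points. RBM25 itself held a distant pair 804 nt apart, with 43.42% in untreated wild type and 33.12% with ABA (p = 0.335) in the authors' deposited table; it was in no mutant table.

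Of 29 ABA signalling genes, 4, 3 and 3 had a member. HAB1 was the one with p under 0.05 and a higher PSI in each mutant table, where 6.13% and 6.4% of all events had such a p in either direction. ABF1, a bZIP factor that binds ABA response elements, was lower with ABA at its 42-nt choice in the 5′ untranslated region, with 62.79% in wild type and 44.83% in rbm25-1 (p = 0.0309) in the authors' deposited table, and it had 64.52% and 50% untreated (p = 0.057). The kinase genes SNRK2.3 and OST1, which act below the phosphatases, had low values with no p under 0.05: SNRK2.3 ran from 0.0% to 1.15% over the groups, and OST1 had 0.0% and 4.35% untreated. No member of the list had p under 0.05 after ABA in wild type, where the median was -0.76 points. Of 14 clock genes, LCL1 alone had a member, between 57.69% and 62.11% in all groups.

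The share of events with p under 0.05 differed between kinds of distant acceptors. With both acceptors annotated it was 10.5% untreated, 12.1% with ABA and 7.87% after ABA in wild type; with only the upstream one annotated it was 4.33%, 3.09% and 2.66%, and with only the downstream one 9.25%, 7.56% and 7.91%. The share whose 2 PSI values were equal ran along: 15.4%, 54.7% and 22.8% untreated in the same order of kinds. By distance, pairs 7 to 12 nt apart had 4.22% untreated and 2.24% with ABA, pairs 13 to 30 nt apart 8.08% and 8.31%, pairs 31 to 100 nt apart 9.31% and 10.7%, and pairs over 100 nt apart 7.34% and 5.49%. The share thus did not go on rising with distance. After ABA in wild type the 4 bins had 5.99%, 5.36%, 3.65% and 5.17%. Acceptors at most 6 nt apart had 3.43%, 3.7% and 3.05%. At the limit of the definition itself, 5 of 131 pairs 6 nt apart and 2 of 90 pairs 7 nt apart had p under 0.05 untreated, 9 of 154 and 2 of 82 with ABA, and 3 of 154 and 1 of 93 after ABA in wild type. These shares are descriptions, their differences were not tested, and what part the PSI level plays in them was not tested.

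**Figure D5:**
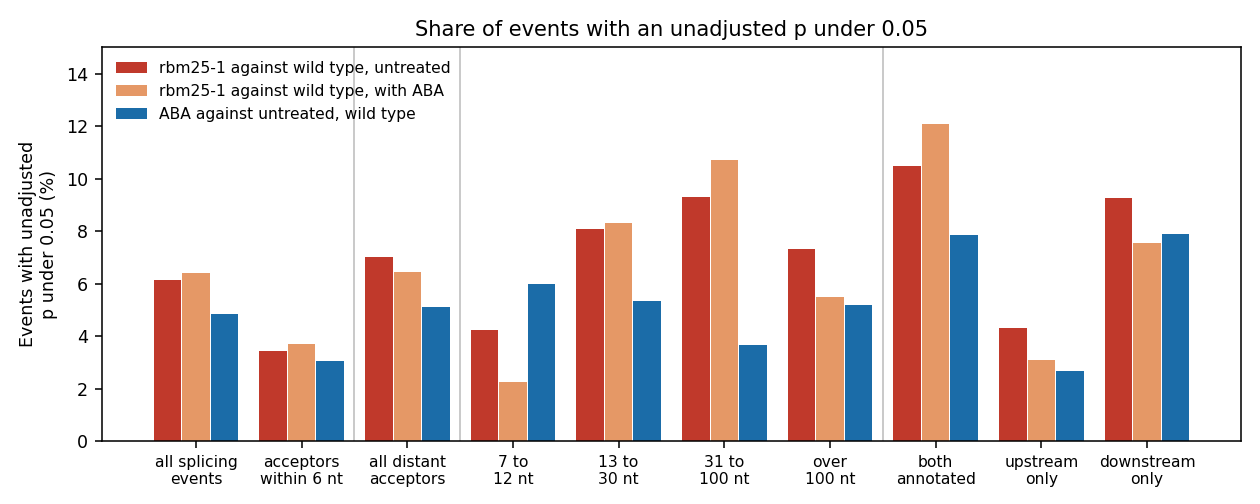
Percent of events with an unadjusted p under 0.05 (vertical axis, from 0) in the 3 authors' tables, for all splicing events, acceptors at most 6 nt apart, all distant acceptors, and distant acceptors by distance and by which acceptors are annotated. Distant acceptors lie near all events (7.03% against 6.13% untreated), and pairs with both acceptors annotated are highest, at 10.5%, 12.1% and 7.87%.

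The level of the host genes was read in the authors' deposited gene tables. Of 1108 host genes tested untreated, 133 (12%) passed the authors' q under 0.05 in rbm25-1, 64 higher and 69 lower, against 13.3% of all loci. With ABA, 419 of 1270 (33.0%) passed, 225 higher and 194 lower, against 31.9%, and after ABA in wild type 638 of 1214 (52.6%), 309 higher and 329 lower, against 56.1%. Host genes of members with p under 0.05 passed in 17 of 89, 41 of 91 and 46 of 70 cases. Their median FPKM was 33.1, 28.9 and 25.7, against 20.5, 19.6 and 19.9 over all host genes, and what part expression level plays in these counts was not tested.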

How the data were processed

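Reads were processed by the authors with Trimmomatic 0.32, TopHat2 2.0.13, Cufflinks 2.2.1 and Cuffdiff on the build TAIR10, per the submitters' processing notes. The deposited splicing tables give PSI in percent for each group, their signed difference (a score in points) and a p-value without adjustment, per the file headers. Not given in the sources used here are the splicing program, its test and its read minimum. The deposited gene tables give FPKM for each group, a log2 fold change and an adjusted p-value (q), per the file headers.

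Members with damaged rows (2, 3 and 2 in the 3 tables) were left out. Benjamini-Hochberg adjustment ran over all readable events of a table (Python 3.11.15, pandas 2.3.3) and was tested on simulated data. Host genes were assigned by coordinates, since for 191 members the deposited gene did not match them, and 45 members have no single host. Named are the 12 highest and 12 lowest differences per comparison among members with p under 0.05, those past it with 1 sign in both mutant tables, and members in 4 gene lists. Members and lists were chosen with earlier results of these data known. All p-values may measure technical spread. Alternatives concerned distance, threshold, PSI range, adjustment and interval type.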

Additional observations from a re-analysis of the deposited data

How the results depend on the processing

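Of 43 alternative values, 34 stayed within 1.5 times the reported count, and the count of members past an adjusted p remained 0 under each of the 4 other adjustments or thresholds in all 3 tables, with a lowest adjusted p of 0.122 (over alternative acceptors only, untreated). A threshold of p under 0.01 left 20 untreated, 31 with ABA, 18 after ABA in wild type and 5 in both mutant comparisons, where 94, 100, 76 and 31 were reported. Distances above 12 nt left 50 of the 76 after ABA. Requiring the authors' q and a 2-fold change left 3, 9 and 122 host genes, and adjusting p within the untreated gene table left 52 of the 133; fewer genes can pass by construction in the former, and the cause was not tested in the latter. Keeping only intervals within 1 exon and its intron, an alternative chosen after seeing the data, left 86, 94, 73 and 29. No paired analysis was possible because the tables hold only 1 value per group, and leaving out replicates could not be run for the same reason. Depth is unknown, so that a PSI of 0 or 100% may rest on few reads. Among members with equal PSI in both groups, 408 of 498, 453 of 559 and 433 of 524 had a deposited p of 0.42265, so that the p draws on values other than the 2 PSI printed.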
